A study of Mus musculus with 19 samples.

Results

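Dendritic cells of type 1 (DC1) lacking Batf3 were compared here between 2 populations of the same lymph nodes, migratory DC1 and resident DC1. The 6 arrays were chosen by their labels, 3 of migratory and 3 of resident Batf3-/- Irf8VENUS+ DC1, out of 19 arrays in the whole series, 11 of them from lymph nodes. All mice were on the C57Bl/6j background. All carried Irf8VENUS, a fluorescent reporter of Irf8, and the sorted cells were Irf8VENUS+. The inguinal, cervical and brachial nodes that drain the skin (SDLN) were digested with collagenase and DNAse. DC1 were sorted as cells negative for B220, EpCam and CD172 and positive for CD11c, MHCII and CD24. Within them the migratory cells had high MHCII and intermediate CD11c, and the resident cells had intermediate MHCII and high CD11c. Migratory (2 arrays) and resident (3 arrays) WT Irf8VENUS+ DC1 from the same kind of nodes served to ask whether the change differed between genotypes. The labels give no age, sex or number of pooled mice for these arrays. Whether the arrays of 1 group stem from separate mice is not stated, so the spread behind each p-value is that among arrays and can be technical in part.

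Conventional DC1 take up material of dead cells and present it to CD8 T cells. Resident DC1 develop from precursors that enter the node from blood. Migratory DC1 develop in the skin, mature, and travel through lymph to the T cell zone under the chemokine receptor CCR7. Maturation is known to turn off uptake and sensing genes and to turn on genes for migration, T cell contact and cytokines. BATF3, a transcription factor of the AP-1 family, partners with IRF8 and sustains Irf8 transcription in DC1. Mice that lack it have few DC1 by the usual surface markers.

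RNA was measured as log2 intensity of probe sets, where a difference of 1 is a 2-fold change, and 11932 genes with at least 2 arrays at or above the median of the table (4.82) were tested. Replicate numbers 1, 2 and 3 stand for the code that arrays share in their titles. Migratory replicate 3 correlated less with its group (r = 0.948 and 0.950) than replicates 1 and 2 did with each other (r = 0.986). The same held for resident replicate 3 (r = 0.971 and 0.973, against 0.989). The spread of all values within an array was 2.07 to 2.16 (SD) in migratory and 2.16 to 2.23 in resident Batf3-/- arrays. Spread therefore moved with the population, and its part in the results was not tested beyond the alternative given at the end. The precision is limited by the number of arrays.

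Batf3 itself was checked first. Its log2 intensity was 6.02, 5.87 and 6.17 in migratory and 5.96, 5.76 and 5.50 in resident Batf3-/- DC1, against means of 9.19 in migratory and 8.38 in resident WT DC1. All 6 Batf3-/- values lay below all WT values, and the migratory and resident Batf3-/- values overlapped (change 0.28 ± 0.17, SE of the fit, adjusted p = 0.235 in limma). Of the genes of the sort, Itgax, the gene of CD11c, had values of 9.32, 9.08 and 7.70 in migratory and 10.72, 10.54 and 10.47 in resident DC1. CD11c set the gate, so this difference is no finding. H2-Ab1, a class II chain gene, had 12.24, 12.12 and 12.04 in migratory and 12.92, 12.79 and 13.00 in resident DC1. Its RNA was thus lower in the cells gated on high MHCII protein, by 0.77 ± 0.08 (adjusted p = 8e-06). Ptprc, the gene of CD45, fell by 1.24 ± 0.18. Cd24a, the gene of the CD24 gate, fell by 0.64 ± 0.15. Sirpa, the gene of CD172, had values of 5.35 to 6.15 in migratory and 4.93 to 5.45 in resident DC1 (0.53, adjusted p = 0.431). With the title code as a block in a fit of the 6 Batf3-/- arrays alone it was called (adjusted p = 0.043). Epcam stayed below the filter level on all 11 arrays.

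Between migratory and resident Batf3-/- DC1, 4371 genes (36.6% of those tested) passed an adjusted p of 0.05 in limma. Of these, 1677 (14.1%) were higher and 2694 (22.6%) were lower in migratory cells. With a change of at least 2-fold also asked, 685 (5.74%) were higher and 1190 (9.97%) were lower. The 3 migratory and 3 resident values did not overlap for 5586 genes (46.8%). Within each of the 3 title codes, 4345 of the 4371 called genes had the same sign as in the fit. The calls came from these same arrays, so this agreement follows largely from the selection and is no separate test. Of all 11932 genes tested, called or not, 7949 had the same sign within each of the 3 title codes. The median change of all genes tested was -0.02, so the changes below stand against a centre near 0. Counts of called list members below are to be read beside the shares of all genes, 14.1% higher and 22.6% lower. A count near these shares is no result about the list.

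The 15 largest increases were 14.5- to 26.4-fold. Serpinb1a, which encodes an intracellular serine protease inhibitor, had 9.59, 9.34 and 9.96 in migratory and 5.07, 4.96 and 4.72 in resident DC1 (change 4.71 ± 0.21, adjusted p = 3.85e-08). Atxn1, which encodes ataxin 1, had 9.24, 9.29 and 9.73 in migratory and 4.84, 3.94 and 5.31 in resident DC1 (4.72 ± 0.29). H2-M2, a nonclassical class I gene, had 10.13, 9.82 and 10.94 in migratory and 6.13, 5.13 and 6.04 in resident DC1 (4.53 ± 0.34). For all 3 genes every migratory array lay above every resident array by more than 3 log2 units. Others were the transporter gene Slco5a1 (4.51), the cytokine gene Il15 (4.41), the signalling inhibitor gene Socs2 (4.36), the annexin gene Anxa3 (4.36), Insl6 of the relaxin family (4.31) and the chaperone gene Clu (4.26). Nudt17 (4.24), Apol7c (4.21), the semaphorin gene Sema6d (4.08), Cdh2 for N-cadherin (3.99), the protease gene Asprv1 (3.91) and AW112010 (3.86) completed the leading 15. Probe sets of multigene families such as Serpinb1a, Apol7c, H2-M2 and the Ms4a genes can bind RNA of related genes, so their values are uncertain to that extent.

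Tlr3, the sensor of double-stranded RNA that marks DC1, had 5.04, 4.89 and 5.78 in migratory and 10.28, 10.32 and 10.15 in resident DC1 (change -5.02 ± 0.22, adjusted p = 3.85e-08). Naaa, a lysosomal amidase gene, had 5.93, 5.82 and 6.40 in migratory and 10.88, 11.15 and 11.02 in resident DC1 (-4.97 ± 0.41). Ccr2, the receptor gene for CCL2, had 4.10, 3.91 and 4.90 in migratory and 8.89, 8.68 and 8.91 in resident DC1 (-4.52 ± 0.24). No array of one population reached the range of the other for these genes. Ms4a6c (-4.54), the adaptor gene Scimp (-4.51), the chemokine gene Ccl3 (-4.40), Entpd1 for the ectonucleotidase CD39 (-4.33) and the DNA sensor family gene Ifi205 (-4.31) followed. Next were the chemokine receptor genes Cxcr3 (-4.26) and Ccr9 (-4.26), the lectin gene Clec10a (-4.16), Unc119 (-4.15), the late endosome gene Rab7b (-4.13), the focal adhesion gene Parvg (-4.03) and the nucleotide receptor gene P2ry6 (-3.90). Each of these 30 genes was called in the same direction in 18 of 18 alternatives.

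**Figure D1:**
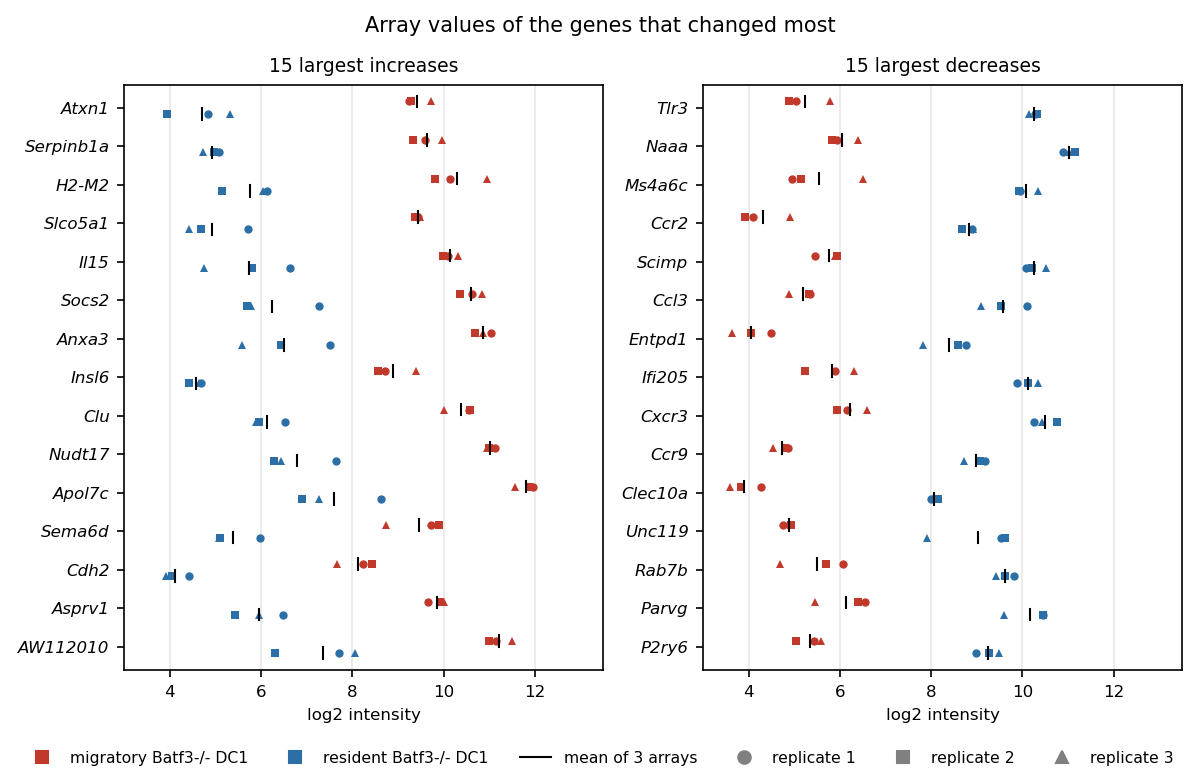
Log2 intensity (x axis) of the 15 genes with the largest increase (left) and decrease (right) in migratory against resident Batf3-/- DC1, each array as a point with its replicate by shape and the mean of 3 arrays as a bar. The migratory points lie apart from the resident points in every row. In the row of Ms4a6c, migratory replicate 3 (6.51) lies above migratory replicates 1 (4.94) and 2 (5.15).

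The maturation list collects genes known to rise when conventional dendritic cells mature. Like all lists here it was chosen with earlier results of these data known. Its counts are therefore a description and no independent test. Of its 42 members tested, 39 were called higher and 1 lower, with a median change of 2.39, against -0.02 over all genes tested, and 36 of the increases were at least 2-fold. Fscn1, which encodes the actin bundling protein fascin of dendritic extensions, had 12.47, 12.39 and 11.02 in migratory and 9.65, 8.07 and 7.28 in resident DC1 (change 3.63 ± 0.56, adjusted p = 0.00025). The groups did not overlap, and resident replicate 1 was the highest resident array for Fscn1, Socs2, Anxa3 and Apol7c alike. Ccr7 had 12.66, 12.33 and 12.08 in migratory and 10.63, 9.73 and 9.53 in resident DC1, a 5.24-fold difference (2.39 ± 0.31, adjusted p = 6.62e-05). Cd63, a tetraspanin gene of late endosomes, rose by 3.08 ± 0.48 and Relb by 2.31 ± 0.25. The member called lower was Cd86, a ligand gene of CD28, with 10.05, 10.01 and 9.66 in migratory and 10.34, 10.27 and 10.26 in resident DC1 (-0.38 ± 0.13, adjusted p = 0.0316). No member was called lower in 6 of 18 alternatives, among them those without migratory replicate 3 and without resident replicate 1 or 2. Cd80, the other CD28 ligand gene, ranged from 7.33 to 9.31 in migratory and from 7.87 to 9.27 in resident DC1. Cd83 had 8.66 to 9.08 in migratory and 8.56 to 8.71 in resident DC1, and neither gene was called. Over all alternatives 38 to 40 members were called higher.

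Chemokine receptors guide cells within and between tissues. Of 20 tested receptor and positioning genes, 3 were called higher and 7 lower (median -0.22). Beside Ccr7, the increases were those of Ptger4, a prostaglandin E2 receptor gene (10.54, 10.58 and 9.44 in migratory, 8.61, 8.43 and 8.56 in resident DC1), and of the CXCL12 receptor gene Cxcr4 (0.60 ± 0.19, adjusted p = 0.027). Xcr1, the receptor gene that gives DC1 their response to XCL1, had 6.06, 6.46 and 5.83 in migratory and 9.63, 9.53 and 10.20 in resident DC1 (-3.67 ± 0.21, adjusted p = 1.51e-07). Ccr9, the receptor gene for CCL25, had 4.87, 4.79 and 4.53 in migratory and 9.17, 9.07 and 8.71 in resident DC1. Cxcr3, the receptor gene for CXCL9 and CXCL10, had 6.16, 5.93 and 6.59 in migratory and 10.26, 10.77 and 10.44 in resident DC1. Migratory Batf3-/- DC1 thus had more Ccr7 RNA and less RNA of 4 other chemokine receptors, Ccr2, Cxcr3, Ccr9 and Xcr1, each by more than 3 log2 units. Cx3cr1, the fractalkine receptor gene, fell by 2.35 ± 0.31, and the lipid mediator receptor genes Cysltr1 (-1.21) and Ptger2 (-1.08) also fell.

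Of 24 chemokine genes tested, 10 were called higher and 5 lower (median 0.46). Ccl5, which encodes a chemokine that attracts T cells, had 10.06, 10.24 and 10.28 in migratory and 7.73, 6.03 and 6.58 in resident DC1 (3.41 ± 0.46, adjusted p = 9.78e-05). Ccl22, a ligand of CCR4, had 11.08, 10.74 and 10.31 in migratory and 9.05, 8.40 and 7.51 in resident DC1 (2.39 ± 0.35). The groups of both genes stood apart. The CCR7 ligand gene Ccl19 rose by 1.59 ± 0.29, Cx3cl1 for fractalkine by 1.44 ± 0.25, the CCR4 ligand gene Ccl17 by 1.44 ± 0.21 and Cxcl16 by 1.26 ± 0.18. Ccl3 had 5.33, 5.33 and 4.87 in migratory and 10.11, 9.53 and 9.10 in resident DC1 (-4.40 ± 0.41), and Ccl4, which encodes a related inflammatory chemokine, fell by 2.37 ± 0.19. Cxcl9 had 8.11, 8.59 and 8.62 in migratory and 11.12, 11.25 and 11.39 in resident DC1 (-2.82 ± 0.18, adjusted p = 2.54e-07). Cxcl10 (-1.47) and the CCR2 ligand gene Ccl2 (-1.10) also fell. Ligand genes of CCR7 and CCR4 were higher and those of CXCR3 lower in migratory cells.

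Among 19 cytokine genes tested, 10 were called higher and 3 lower (median 0.60). Il15, which sustains natural killer and memory CD8 T cells, had 10.10, 9.99 and 10.32 in migratory and 6.63, 5.80 and 4.75 in resident DC1, a 21.2-fold difference (4.41 ± 0.35, adjusted p = 1.29e-06). Il15ra, the chain that presents IL-15 to other cells, had 9.78, 9.83 and 9.62 in migratory and 6.40, 6.77 and 6.01 in resident DC1 (3.35 ± 0.20). The cytokine gene and its presenting chain were therefore both higher on each migratory array than on any resident array. Il12b, which encodes the p40 chain of IL-12, had 12.03, 11.50 and 10.79 in migratory and 10.52, 9.75 and 8.51 in resident DC1 (1.85 ± 0.41, adjusted p = 0.0035). Csf1, the growth factor gene of macrophages, had 8.67, 8.14 and 6.12 in migratory and 4.98, 4.40 and 4.66 in resident DC1, with migratory replicate 3 the lowest of its group. Il6 (1.94), Osm (1.63) and Ebi3 (0.93) rose as well. Il1b had 8.97, 8.73 and 8.14 in migratory and 11.19, 10.95 and 10.92 in resident DC1 (-2.41 ± 0.20, adjusted p = 1.86e-06). Tgfb1 fell by 1.89 ± 0.18 and Tnf by 0.87 ± 0.31 (adjusted p = 0.0455). With a stricter filter on dim genes only 5 cytokine genes were called higher.

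**Figure D2:**
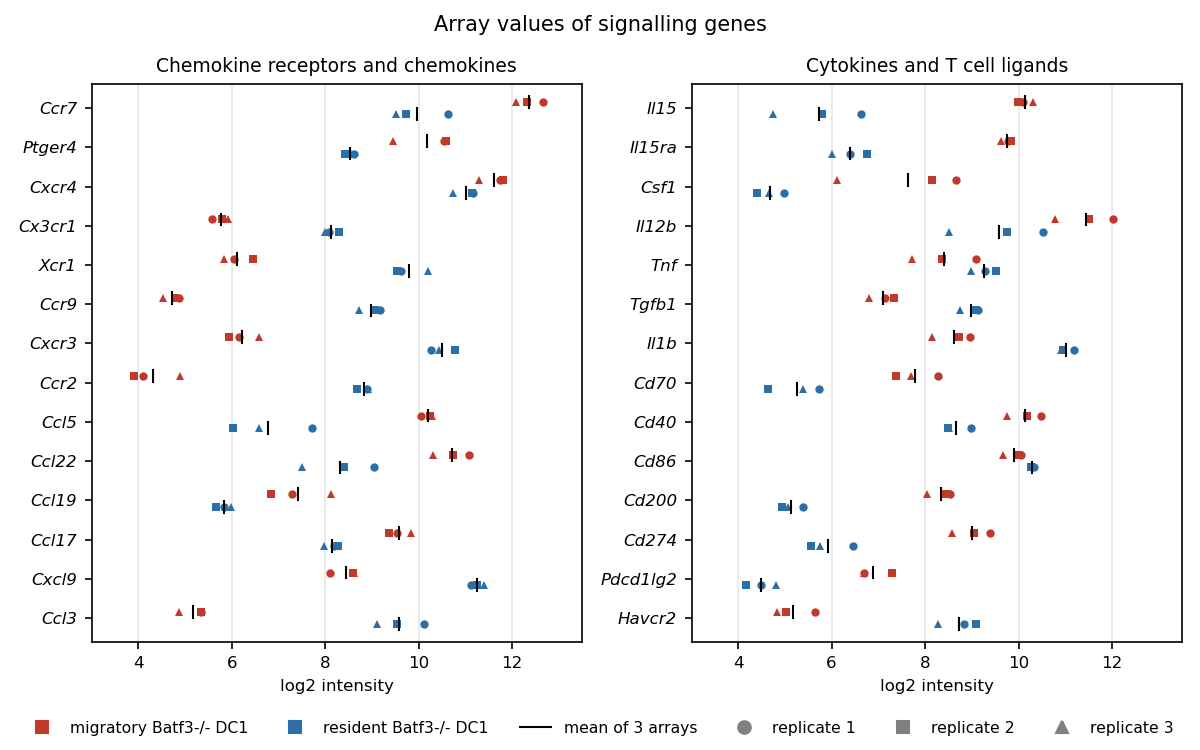
Log2 intensity (x axis) of chemokine receptor and chemokine genes (left) and of cytokine and T cell ligand genes (right) on each Batf3-/- array, with migratory points above resident points and the mean of 3 arrays as a bar. Ccr7, Ccl5, Il15 and Il15ra are higher and Ccr2, Ccl3, Il1b and Havcr2 lower in migratory DC1, and the points of Tnf overlap between populations.

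T cell ligands went both ways. Of 16 costimulatory ligand genes, 6 were called higher and 3 lower, with a median of 0.13, beside 14.1% and 22.6% of all genes. Cd70, the ligand gene of CD27, had 8.27, 7.38 and 7.70 in migratory and 5.74, 4.64 and 5.38 in resident DC1 (2.53 ± 0.29, adjusted p = 2.52e-05). Cd40, through which T cell help acts, had 10.49, 10.19 and 9.74 in migratory and 8.98, 8.48 and 8.52 in resident DC1 (1.48 ± 0.20). The groups of both genes were separate. Slamf1 (2.23) and Icosl (1.67) rose, and Cd84 (-2.34) and Ly9 (-0.95), also of the SLAM family, fell. Tnfsf4 for OX40L had 5.69, 4.82 and 3.49 in migratory and 3.46, 3.41 and 3.60 in resident DC1; it was called (adjusted p = 0.042), but its groups overlapped and 8 of the 17 alternatives that tested it called it. Without migratory replicate 1 it was 0.67 (adjusted p = 0.16).

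Of 18 coinhibitory and tolerance genes, 7 were called higher and 5 lower (median 0.26). Cd274 for PD-L1 had 9.40, 9.05 and 8.57 in migratory and 6.46, 5.56 and 5.74 in resident DC1 (3.09 ± 0.35, adjusted p = 2.65e-05). Pdcd1lg2 for PD-L2 had 6.70, 7.28 and 6.69 in migratory and 4.49, 4.16 and 4.80 in resident DC1 (2.40 ± 0.29). Cd200, whose product signals to CD200R on myeloid cells, had 8.54, 8.45 and 8.04 in migratory and 5.38, 4.95 and 5.06 in resident DC1 (3.22 ± 0.17). Both PD-1 ligand genes and Cd200 were higher on each migratory array than on any resident array. Pvr (1.84), a ligand gene of TIGIT, and Aldh1a2 (1.82), which makes retinoic acid, also rose. Havcr2 for TIM-3 had 5.64, 5.02 and 4.83 in migratory and 8.83, 9.09 and 8.27 in resident DC1 (-3.56 ± 0.31, adjusted p = 3.11e-06), and Btla fell by 2.23 ± 0.26. The decreases numbered 3 without migratory replicate 1 or without resident replicate 3. With the stricter filter 4 increases were called.

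Of 37 genes of SOCS proteins, cytokine receptors and their kinases, 11 were called higher and 6 lower (median 0.20). Socs2, a feedback inhibitor gene of cytokine receptors, had 10.62, 10.35 and 10.85 in migratory and 7.27, 5.70 and 5.78 in resident DC1. The receptor genes Il21r (3.12), Il7r (2.84), Il2ra (1.90) and Il4ra (1.54) and the transcription factor gene Stat4 (2.78) rose. Ifngr1, the interferon gamma receptor gene, had 7.26, 7.61 and 6.38 in migratory and 10.45, 10.58 and 9.92 in resident DC1 (-3.23 ± 0.28, adjusted p = 2.36e-06), and Socs3 fell by 1.54 ± 0.20. Within 1 gene family Socs2 thus rose and Socs3 fell. The number called higher was 17 without migratory replicate 3, 17 with array weights and 19 with each array's spread of values as a covariate. The number called lower was 3 without migratory replicate 3 and 2 without resident replicate 2 or with that covariate.

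NF-kB factors drive much of the transcription of dendritic cell maturation, through subunits such as RelA, c-Rel and RelB, inhibitors that hold them in the cytoplasm, and the kinase NIK of the noncanonical route. Of 35 such genes tested, 16 were called higher and 3 lower (median 0.62), and 25 were called higher with array weights. Relb had 10.45, 10.35 and 9.49 in migratory and 8.07, 7.71 and 7.58 in resident DC1 (adjusted p = 1.67e-05). Birc2, a ubiquitin ligase gene of the pathway, had 9.43, 9.13 and 9.08 in migratory and 6.50, 6.20 and 6.08 in resident DC1 (2.95 ± 0.19). Map3k14 for NIK rose by 1.51, Tnfrsf11a for RANK by 2.01, Cflar by 1.68 and Malt1 by 1.32. Rela (0.85) and Rel (0.71) rose less, and Nfkb2 (0.60, adjusted p = 0.248) was not called. Nfkbia for the inhibitor IkBa had 12.03, 11.91 and 11.11 in migratory and 10.89, 10.68 and 10.48 in resident DC1 (1.00 ± 0.20). Tnip1, an inhibitor gene of the pathway, had 8.41, 8.44 and 7.48 in migratory and 7.28, 7.05 and 6.97 in resident DC1 (1.01 ± 0.23). Nfkbid for the nuclear protein IkBNS had 7.84, 7.54 and 6.55 in migratory and 8.97, 8.92 and 8.81 in resident DC1 (-1.59 ± 0.33, adjusted p = 0.00248), and Tnfrsf1a (-1.57) and Ltbr (-0.66) also fell. Receptor genes of the family therefore split, with Tnfrsf11a and Tnfrsf1b (1.56) higher and Tnfrsf1a and Ltbr lower.

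RefSeq promoter windows of GRCm38.p6, from 250 bases before to 50 after the gene start, were given for 9519 of the 11932 tested genes and for 30 of the 35 NF-kB genes. The NF-kB motif, GGG followed by any 3 bases and TTCC, was searched on both strands. A gene with several windows was counted where any of them held the letters. The motif occurred for 10 of the 30 genes (33.3%), for 684 of the 9519 (7.19%), for 2 of the 31 maturation genes with a window (6.45%) and for 133 of the 1328 genes called higher (10%). Windows of 2 inhibitor genes that rose and of Nfkbid, which fell, are shown because each holds the letters, in capitals, while their RNA moved in different directions. They were chosen after the matches were seen, at chr12:55492598-55492897 (Nfkbia, minus strand), chr11:54962891-54963190 (Tnip1, minus strand) and chr7:30422156-30422455 (Nfkbid, plus strand).
Nfkbia: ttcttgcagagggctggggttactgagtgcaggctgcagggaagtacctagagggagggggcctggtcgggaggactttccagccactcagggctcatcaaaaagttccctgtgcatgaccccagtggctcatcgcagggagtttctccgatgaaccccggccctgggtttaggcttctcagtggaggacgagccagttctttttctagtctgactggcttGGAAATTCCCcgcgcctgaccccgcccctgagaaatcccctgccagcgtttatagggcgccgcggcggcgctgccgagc
Tnip1: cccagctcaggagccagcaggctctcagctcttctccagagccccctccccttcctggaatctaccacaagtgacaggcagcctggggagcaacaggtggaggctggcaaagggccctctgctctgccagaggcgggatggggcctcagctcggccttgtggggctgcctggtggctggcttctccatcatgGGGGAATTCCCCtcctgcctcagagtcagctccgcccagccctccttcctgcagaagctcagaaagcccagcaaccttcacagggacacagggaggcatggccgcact
Nfkbid: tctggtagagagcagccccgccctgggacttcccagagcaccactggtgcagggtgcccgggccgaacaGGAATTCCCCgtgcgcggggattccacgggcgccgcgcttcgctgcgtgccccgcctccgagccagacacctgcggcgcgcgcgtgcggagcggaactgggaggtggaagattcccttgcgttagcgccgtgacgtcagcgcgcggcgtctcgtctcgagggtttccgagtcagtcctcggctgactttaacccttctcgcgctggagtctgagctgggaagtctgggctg
Counted from 0 at the gene start, the match began at position -29 in Nfkbia, at -58 and -56 in Tnip1, where 2 matches overlap, and at -181 in Nfkbid. A match is a description of the letters and was not set against binding of a factor.

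The cDC1 identity genes mark this subset against other dendritic cells. Of 34 tested, 3 were called higher and 26 lower, with a median change of -1.74, and 22 to 26 were lower over all alternatives. Clec9a, the receptor gene for actin of dead cells, had 6.54, 6.38 and 6.26 in migratory and 10.10, 10.06 and 10.19 in resident DC1 (-3.72 ± 0.18, adjusted p = 6.53e-08). Wdfy4, needed for cross-presentation by DC1, had 8.15, 8.17 and 7.06 in migratory and 11.40, 11.38 and 10.75 in resident DC1 (-3.38 ± 0.30). Itgae for CD103, an integrin of skin-derived DC1, had 4.80, 5.25 and 5.51 in migratory and 7.58, 7.18 and 7.91 in resident DC1 (-2.38 ± 0.30). Defining markers of the labelled cell type, Xcr1, Clec9a and Tlr3, were thus at 4.89 to 6.54 on all migratory Batf3-/- arrays, against 9.53 to 10.32 on the resident ones, and the label of those arrays rests on the sort rather than on these genes. Cadm1, another adhesion marker of DC1, stayed at 7.15 to 7.38 in migratory and lay at 9.12 to 9.31 in resident DC1.

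The members called higher were Ly75 for the uptake receptor DEC-205 (9.42, 9.20 and 8.57 in migratory, 7.55, 7.34 and 7.24 in resident DC1), Il12b and Id2, a factor gene of DC1 development (0.89 ± 0.16). Irf8 had 12.37, 11.95 and 11.54 in migratory and 12.49, 12.51 and 12.37 in resident DC1 (-0.51 ± 0.18, adjusted p = 0.0488). Its groups overlapped at 12.37, and 12 of 18 alternatives did not call it, with values from -0.55 to -0.07. Mycl, a factor gene that DC1 depend on for expansion, had 4.62, 5.06 and 4.94 in migratory and 7.77, 8.06 and 7.18 in resident DC1 (-2.80 ± 0.23).

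Markers of cDC2, the other conventional subset, did not replace those of DC1. Of 22 tested, 5 were called higher and 11 lower (median -1.08). Irf4, a factor gene of cDC2 and of migration, had 8.20, 8.20 and 7.00 in migratory and 5.69, 5.52 and 5.36 in resident DC1 (2.28 ± 0.37, adjusted p = 0.000385). Tmem176a (2.62) and Tmem176b (2.44) rose. Clec10a had 4.27, 3.82 and 3.59 in migratory and 8.00, 8.14 and 8.03 in resident DC1, and Mgl2 (-3.08), Cd209a (-2.53), Clec12a (-2.28) and Klf4 (-2.12) fell beside it. The lectin genes of cDC2 were therefore lower in migratory cells, while Irf4 was higher. Of 14 plasmacytoid dendritic cell genes, 3 were called higher and 4 lower (median 0.09), among them Spib (1.13) and Irf7 (-2.01). These numbers were near the shares of all genes, 14.1% and 22.6%. Without migratory replicate 2 or without resident replicate 2, 1 member was called higher, and Spib was not called (adjusted p = 0.0899 and 0.0795), nor without migratory replicate 1 (adjusted p = 0.0589).

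Of 49 transcription factor genes tested, 10 were called higher and 18 lower (median -0.11). Prdm1 for Blimp-1 had 5.96, 5.86 and 4.96 in migratory and 4.26, 4.02 and 3.95 in resident DC1 (1.52 ± 0.22), and Irf1 (1.44) and Ets2 (1.47) rose. Myc fell by 2.24 ± 0.27, Ahr for the aryl hydrocarbon receptor by 2.15 ± 0.29, and Bcl11a (-1.77) and Ikzf1 for Ikaros (-1.69) fell too. The factor genes Spi1 (-0.39) and Zbtb46 (-0.23) of all conventional dendritic cells were not called. The number called lower was 11 with each array's spread as a covariate, and the number called higher was 5 without migratory replicate 1 and 6 without resident replicate 3. Of 25 AP-1 family genes, the family of BATF3, 1 was called higher and 5 lower (median -0.10), beside 14.1% and 22.6% of all genes, so the number lower was near that of all genes. Atf5 rose by 0.74 ± 0.13. Batf (-0.39, adjusted p = 0.0593) and Batf2 (0.06, adjusted p = 0.776), the close relatives of Batf3, were not called. Fos (-1.22), Fosb (-1.16), Atf6 (-1.23), Mafk (-1.18) and Bach2 (-0.87) were the members that fell. The number called lower was 8 with array weights or without migratory replicate 1, and 3 with the spread covariate, under which Fos, Fosb and Bach2 were not called (adjusted p = 0.0686, 0.174 and 0.0664).

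**Figure D3:**
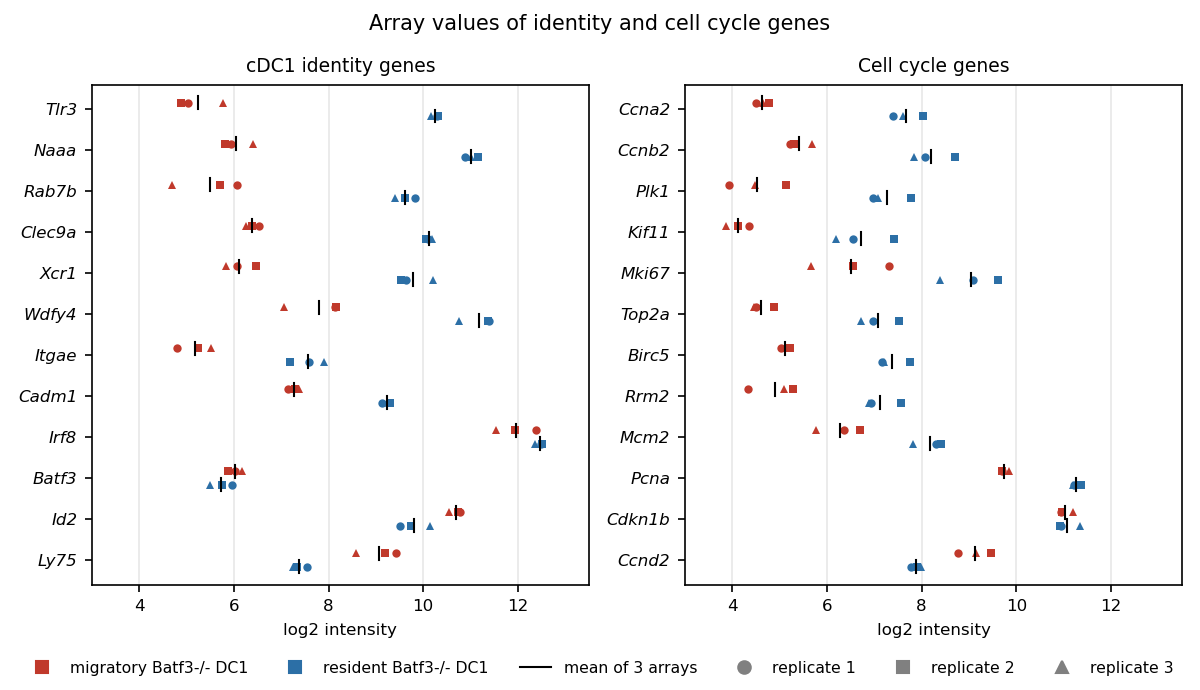
Log2 intensity (x axis) of cDC1 identity genes (left) and cell cycle genes (right) on each Batf3-/- array, with migratory points above resident points and the mean of 3 arrays as a bar. Tlr3, Naaa, Clec9a and Xcr1 and the mitotic genes are lower in migratory DC1, Ly75, Id2 and Ccnd2 are higher, and Batf3 and Cdkn1b overlap.

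Tested antigen presentation genes split by class in Batf3-/- DC1, beside 14.1% of all genes called higher and 22.6% lower. Of 19 tested class I pathway genes, 10 were called higher and 3 lower (median 0.48). In WT 5 were higher and 6 lower (median 0.03). The difference of the changes, Batf3-/- minus WT, was called by limma for 0 of these 19 genes. At an unadjusted p under 0.05 in limma the count was 6. H2-K1, H2-D1, H2-Q7, H2-T22 and H2-T23 of class I and H2-DMb1 and H2-DMb2 of class II had no probe set with 1 symbol and were not tested. B2m, the light chain gene of class I, had 12.45, 12.43 and 12.44 in migratory and 11.82, 11.88 and 12.20 in resident DC1 (0.48 ± 0.12, adjusted p = 0.007). Nlrc5, the class I transactivator gene, had 11.48, 11.18 and 10.79 in migratory and 10.40, 10.34 and 9.08 in resident DC1 (1.21 ± 0.34, adjusted p = 0.013), and was not called without migratory replicate 1 (1.05, adjusted p = 0.0518). The proteasome genes Psme2 (1.08), Psmb10 (0.66), Psmb8 (0.59) and Psme1 (0.53) rose, and the chaperone genes Pdia3 (-1.08), Calr (-0.90) and Canx (-0.74) fell. The transporter genes Tap1 (0.04) and Tap2 (0.03) were not called.

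Of 17 class II pathway genes, 3 were called higher and 9 lower (median -0.36). Ciita, the class II transactivator gene, had 6.34, 6.02 and 5.76 in migratory and 9.07, 8.98 and 8.54 in resident DC1, a 7.08-fold difference (-2.82 ± 0.21, adjusted p = 8.75e-07). H2-DMa, part of the complex that loads peptide, had 9.78, 9.70 and 9.60 in migratory and 12.09, 12.08 and 11.85 in resident DC1 (-2.31 ± 0.10). H2-Ob, which modulates loading, ranged from 6.78 to 7.73 in migratory DC1 and stood above them on every resident array (-2.91 ± 0.36). Ciita and these loading genes were thus lower by more than 2 log2 units. The chain genes changed less, with Cd74 at -0.70, H2-Eb1 at -0.66 and H2-Aa at -0.28. Lgmn (2.20), a lysosomal protease gene, and H2-Eb2 (2.07) rose, and the ubiquitin ligase gene Marchf1, which removes class II from the surface, fell by 0.65.

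Genes of uptake and sensing were read beside all genes tested, of which 14.1% were called higher and 22.6% lower. Of 22 cross-presentation and phagosome genes, 2 were called higher and 10 lower (median -0.38), and of 21 uptake receptor genes 3 were higher and 10 lower (median -0.15). Of the phagosome genes 1 was called higher without migratory replicate 3 or without resident replicate 1 or 3. Rab7b had 6.07, 5.70 and 4.69 in migratory and 9.82, 9.61 and 9.41 in resident DC1. The scavenger receptor gene Scarb1 had 6.59, 6.42 and 6.67 in migratory and 9.38, 9.48 and 9.31 in resident DC1 (-2.83 ± 0.21), and Timd4, a receptor gene for phosphatidylserine, fell by 2.24 ± 0.27. Both uptake genes stood apart between the populations. Sec22b (0.09) and Sec61a1 (-0.29) were not called. Of 18 Toll-like receptor and adaptor genes, 2 were called higher and 9 lower (median -0.73). Myd88, the shared adaptor gene, had 7.45, 7.35 and 6.58 in migratory and 8.86, 9.31 and 9.27 in resident DC1 (-2.02 ± 0.28, adjusted p = 0.000107). Tlr12 (-3.08) and Tlr1 (-1.74) fell. Irak3, an inhibitor gene of this pathway, rose by 2.81 ± 0.15, and Ly96 for the TLR4 partner MD-2 rose by 2.46 ± 0.27.

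Genes of adhesion and shape moved in both directions. Of 21 integrin genes, 6 were called higher and 6 lower (median 0.16). Itgb2, the shared chain of leukocyte integrins, had 6.27, 6.03 and 5.59 in migratory and 9.16, 9.17 and 8.88 in resident DC1 (-3.10 ± 0.21, adjusted p = 4.27e-07). Its partner Itgal fell by 2.91 ± 0.26 and Itgb7, the partner of CD103, by 2.88 ± 0.21. Leukocyte integrin chains were thus the lower ones, while Itgb1 (1.12 ± 0.18) and Itga6 (1.06 ± 0.13) of matrix receptors rose. The number called higher was 3 without migratory replicate 2 and 2 with the stricter filter. Of 31 junction and adhesion genes, 11 were called higher and 8 lower (median 0.24). Cdh2 had 8.24, 8.43 and 7.67 in migratory and 4.41, 4.04 and 3.92 in resident DC1, and Vcam1 (2.31) and F11r (1.99) rose. Jaml (-3.05), Pecam1 (-2.79) and Cldn1 (-1.59) fell.

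Of 62 actin and tubulin genes, 19 were called higher and 13 lower (median 0.04). Tubb2b, a beta tubulin gene, had 9.89, 10.08 and 9.12 in migratory and 7.22, 6.26 and 6.35 in resident DC1 (3.09 ± 0.31, adjusted p = 1.02e-05). Rhoc, a small GTPase gene of cell motility, rose by 2.57 ± 0.26, and Cdc42ep3 rose by 2.03 ± 0.18. Myo1f, a myosin gene of leukocytes, had 5.31, 5.33 and 5.08 in migratory and 9.08, 9.21 and 8.68 in resident DC1 (-3.75 ± 0.19). Coro1a (-1.80), Evl (-1.67) and Was (-1.50) fell, and Actb (-0.04) was not called. The number called lower was 7 with the spread covariate and 8 without resident replicate 1 or 2.

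The cell cycle list had the largest share of members called lower among lists with at least 20 tested. Of 45 tested, 40 were called lower and 1 higher, with a median of -1.46, and 34 to 42 were lower over all alternatives. Ccna2 for cyclin A2 had 4.49, 4.77 and 4.64 in migratory and 7.39, 8.03 and 7.60 in resident DC1 (-3.04 ± 0.17, adjusted p = 1.14e-07). Mki67, the proliferation marker gene, had 7.30, 6.55 and 5.67 in migratory and 9.09, 9.62 and 8.39 in resident DC1 (-2.53 ± 0.37). All resident values of both genes lay above all migratory values, and resident replicate 2 was the highest array. Genes of DNA replication fell with those of mitosis, among them Rrm2 (-2.23), Mcm2 (-1.90) and Pcna (-1.51). Ccnd2 for cyclin D2 was the member called higher (1.24 ± 0.21), and the inhibitor gene Cdkn1b (-0.05) was not called. In sorted populations, fewer dividing cells and less RNA per cell cannot be told apart.

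The letters TTTGAA of the cell cycle homology region (CHR), an element of promoters of mitotic genes, occurred on either strand for 13 of the 35 cell cycle genes with a window (37.1%) and for 1341 of all 9519 (14.1%). The letters CCAAT occurred for 27 of the 35 genes (77.1%) and for 3988 of the 9519 (41.9%), and TTCCCGC, the letters searched for E2F, for 8 (22.9%) and 909 (9.55%). The windows of Ccnb2 for cyclin B2 and Plk1 for polo-like kinase are shown with the CHR letters in capitals, as mitotic genes that fell by 2.80 ± 0.21 and 2.76 ± 0.27. They were chosen after the matches were seen and lie at chr9:70421505-70421804 (Ccnb2, minus strand) and chr7:122159185-122159484 (Plk1, plus strand).
Ccnb2: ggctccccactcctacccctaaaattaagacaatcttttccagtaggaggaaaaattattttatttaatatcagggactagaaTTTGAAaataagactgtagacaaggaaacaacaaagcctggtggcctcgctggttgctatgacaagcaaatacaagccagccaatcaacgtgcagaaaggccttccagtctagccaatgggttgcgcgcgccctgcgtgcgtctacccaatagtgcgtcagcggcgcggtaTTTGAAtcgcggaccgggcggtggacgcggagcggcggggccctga
Plk1: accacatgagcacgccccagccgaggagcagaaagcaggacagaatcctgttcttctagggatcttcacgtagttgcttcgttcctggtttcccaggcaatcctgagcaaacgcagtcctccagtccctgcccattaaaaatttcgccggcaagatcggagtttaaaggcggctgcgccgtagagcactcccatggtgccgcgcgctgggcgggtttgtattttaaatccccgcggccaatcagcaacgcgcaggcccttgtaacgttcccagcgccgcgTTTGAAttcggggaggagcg
The matches began at -167 and 4 from the gene start in Ccnb2 and at 30 in Plk1. Ccnb2 had 5.22, 5.30 and 5.70 in migratory and 8.07, 8.71 and 7.85 in resident DC1, and Plk1 had 3.93, 5.14 and 4.48 in migratory and 6.98, 7.77 and 7.08 in resident DC1.

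The survival and metabolic lists differed from each other in direction, beside 14.1% of all genes called higher and 22.6% lower. Of 20 BCL2 family and survival genes, 7 were called higher and 4 lower (median 0.26). Fas for the death receptor had 7.73, 7.14 and 7.06 in migratory and 4.68, 3.89 and 4.32 in resident DC1 (3.01 ± 0.23), Bcl2l1 for BCL-XL rose by 1.71 ± 0.23 and Bcl2 fell by 0.80. Of 21 glycolysis genes, 2 were called higher and 12 lower (median -0.55). Ldha had 7.82, 7.86 and 7.65 in migratory and 9.72, 9.83 and 9.65 in resident DC1 (-1.95 ± 0.15), and Pfkp (-2.57) and Hk2 (-1.68) fell. Pfkfb3, which makes an activator of phosphofructokinase, and Eno2, an enolase gene, went the other way, by 3.13 ± 0.25 and 3.26 ± 0.30. Of 22 cholesterol synthesis genes, 8 were called higher and 1 lower (2 lower with the replicate block; median 0.40), with Idi1 at 6.88, 7.00 and 6.66 in migratory and 3.87, 3.91 and 4.25 in resident DC1 (2.83 ± 0.14).

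Of 37 lysosomal genes, 9 were called higher and 11 lower (median -0.06), beside 14.1% and 22.6% of all genes. Among them were Lamp1 (2.34 ± 0.19) and Ppt1 (-3.34 ± 0.19). The number called lower was 4 with the spread covariate and 7 without resident replicate 2. Of 27 interferon response genes, 7 were called higher and 10 lower (median 0.09). Ly6e had 9.37, 10.30 and 9.60 in migratory and 12.66, 12.74 and 12.57 in resident DC1 (-2.90 ± 0.27), and Samd9l fell by 2.53 ± 0.21, while Gbp5 (1.93), Ifit1 (1.69) and Rsad2 (1.55) rose.

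**Figure D4:**
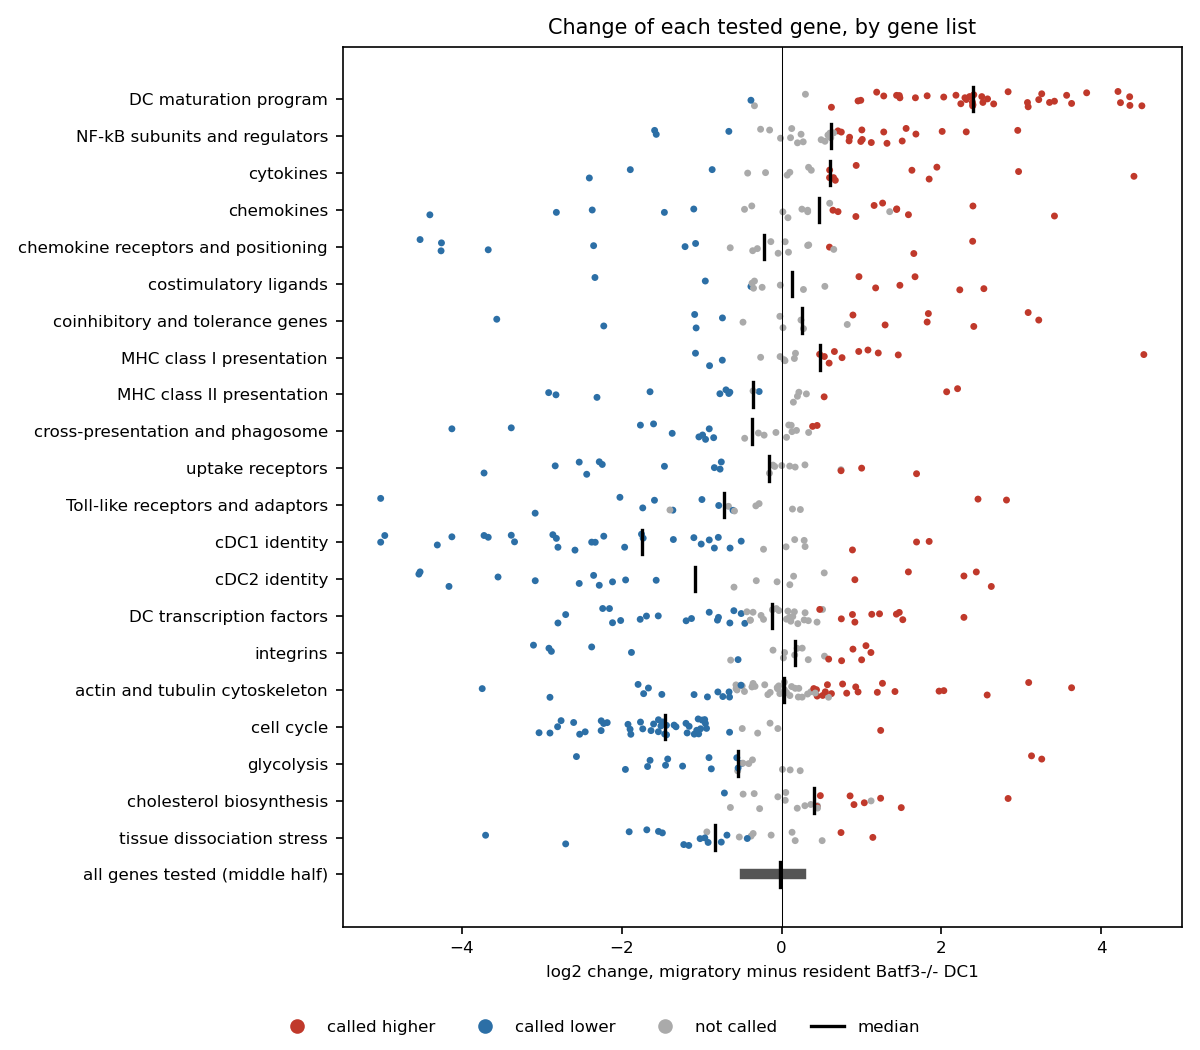
Log2 change of each tested gene in migratory minus resident Batf3-/- DC1 (x axis) by gene list, red where called higher, blue where called lower and grey where not called, with the list's median as a black bar. The lowest row gives the median and the middle range, from the lower to the upper quartile, of all genes tested. The medians of the maturation list (2.39) and of the cDC1 (-1.74) and cell cycle (-1.46) lists lie furthest from 0 among those drawn.

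Genes known to respond to tissue digestion moved with the populations. Of 24 tested, 2 were called higher and 14 lower in migratory cells (median -0.84). Egr2 had 7.86, 8.00 and 6.29 in migratory and 11.33, 11.37 and 10.57 in resident DC1 (-3.70 ± 0.39), and Nr4a1 had 9.77, 9.48 and 6.46 in migratory and 11.69, 11.59 and 10.53 in resident DC1 (-2.70 ± 0.66). With the spread covariate the change of Nr4a1 was -0.98 (adjusted p = 0.134). The list shares Fos, Fosb and 4 genes not called with the AP-1 list, Socs3 with the SOCS list and Nr4a1 with the transcription factor list, and the part of digestion in those results was not tested.

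Markers of other cells that a sort could hold were examined as whole lists, by the log2 of the summed intensity of the members on the array. T cell markers summed to 9.62 to 10.4 in migratory and 9.73 to 10.5 in resident DC1, and none of 14 was called by limma (0 at an unadjusted p under 0.05). B cell markers summed to 8.76 to 9.60 in migratory and 8.70 to 8.90 in resident DC1. Of their 13 tested members, Ebf1 (1.27) and Fcer2a (0.86) were called higher (1 other was lower with the replicate block). Fcer2a was called in 8 of 17 alternatives, and without migratory replicate 2 it was 0.46 (adjusted p = 0.17) and 1 member was called higher, as it was without resident replicate 1 or 2. Cd79a, a defining marker, ranged from 4.96 to 6.88 in migratory and from 4.71 to 5.45 in resident DC1 without a call. Migratory replicate 2 was the highest array for Ebf1, Fcer2a and Cd79a.

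Macrophage and monocyte markers summed to 9.10 to 9.32 in migratory and 10.5 to 11.0 in resident DC1. Of 9 tested, C1qa (0.67) and C1qb (0.74) were called higher and Lyz2 (-2.50) and Ccr2 lower. The defining markers Adgre1, Cd163, Mertk and Fcgr1 stayed below the filter level. Ccr2, Csf1r and Sirpa are also on the cDC2 list, so the sum is not specific to macrophages. Stromal and endothelial markers summed to 9.16 to 9.80 in migratory and 9.38 to 9.44 in resident DC1, and of 9 tested Ccl19, Dcn (1.04) and Lyve1 (0.63) were called higher and Pecam1 lower. Migratory replicate 3 had the highest Ccl19 (8.13) and Dcn (6.14), and without replicate 3 of both populations Dcn was not called (0.70, adjusted p = 0.0999). Without migratory replicate 3 alone, 1 stromal marker was called higher and 2 lower. Keratinocyte markers summed to 8.10 to 8.31 in migratory and 7.69 to 7.79 in resident DC1, with Perp (2.03) called higher of 3 tested. Langerhans cell markers summed to 9.06 to 9.68 in migratory and 10.8 to 11.2 in resident DC1, with Cldn1 and Cd209a lower. Cd207, Epcam, Cdh1 and Hpgds stayed below the filter level in all Batf3-/- arrays. The sum thus rested mainly on Cldn1 and on Cd209a, which is also on the cDC2 list, and is no measure of Langerhans cells. Of 5 natural killer cell markers Tbx21 (-0.47) was called lower, and the 1 neutrophil and 1 erythroid marker tested, S100a9 and Slc4a1, were not called. Without migratory replicate 2, 1 T cell and 2 B cell markers were called lower and 2 keratinocyte markers higher, and Tbx21 was not called without migratory replicate 1 or 2 or resident replicate 3. The part of such cells in the results was not tested.

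The same contrast was then set beside WT DC1. In WT, 5870 genes (49.2%) were called, 1903 (15.9%) higher and 3967 (33.2%) lower in migratory cells. Of the Batf3-/- calls, 75.4% were called in the same direction in WT, which were 56.1% of the WT calls, and 27 genes were called in opposite directions. The median absolute change was 0.34 in Batf3-/- and 0.49 in WT DC1. Of the B cell markers 10 of 13 (median 1.36) and of the T cell markers 5 of 14 (median 0.30) were called higher in migratory WT DC1. The spread of values was 1.96 and 2.03 (SD) on the migratory WT arrays and 2.21 to 2.22 on the resident WT arrays, and their medians were 4.92 and 4.89 in migratory and 4.73 to 4.78 in resident WT DC1. The part of these in the comparison of genotypes was not tested beyond the spread covariate. Of the maturation list, 39 members were higher in Batf3-/- and 39 in WT, and of the cell cycle list 40 were lower in Batf3-/- and 42 in WT. Of the cDC1 identity list, 26 members were lower in Batf3-/- (median -1.74) and 28 in WT (median -2.30). The difference of the changes, Batf3-/- minus WT, was called by limma for 0 of 45 cell cycle genes. It was called for 1 of 42 maturation genes, Ccl17. Of 34 cDC1 identity genes 4 were called higher and 2 lower for it, beside 0.721% and 0.52% of all genes. At an unadjusted p under 0.05 in limma the counts were 1 cell cycle gene, 10 maturation genes and 17 cDC1 identity genes.

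Over all genes that difference was called for 148 (1.24%), of which 86 (0.721%) were higher and 62 (0.52%) lower. The count depended on single arrays: it was 1716 without migratory Batf3-/- replicate 3, 263 without migratory WT replicate 2 and 17 to 69 without any other array. With the title code as a replicate block it was 543, and with each array's spread as a covariate 30. Without replicate 3 of both Batf3-/- populations it was 1497. The count is therefore not firm, and the genes below are given with how often they were called. Klrb1b and Slc7a8 were called in 21 of 21 alternatives and Itga8 in 20 of 20 in which it was tested, and Elovl6, Fzd1, Lipa and Pecam1 were called in 20 of 21.

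Klrb1b, a lectin receptor gene of natural killer cells, had 4.86, 4.94 and 4.49 in migratory and 7.59, 7.36 and 7.14 in resident Batf3-/- DC1, while WT DC1 had 5.03 and 5.28 in migratory and 5.14, 4.90 and 4.62 in resident cells (difference -2.87 ± 0.27, adjusted p = 0.000736). Pecam1 for CD31 had 4.64, 5.15 and 5.30 in migratory and 7.74, 8.03 and 7.69 in resident Batf3-/- DC1, while WT DC1 had 5.21 and 5.76 in migratory and 5.94, 5.67 and 5.52 in resident cells (-2.57 ± 0.31). In both cases resident Batf3-/- DC1 were the group that stood above the other 3. Itga8 had 3.32, 3.60 and 3.54 in migratory and 3.47, 3.20 and 3.30 in resident Batf3-/- DC1, while WT DC1 had 3.96 and 3.89 in migratory and 6.51, 5.75 and 6.56 in resident cells (2.51 ± 0.29). Elovl6, a fatty acid elongase gene, had 5.09, 5.02 and 4.38 in migratory and 5.76, 5.73 and 5.49 in resident Batf3-/- DC1, while WT DC1 had 4.72 and 4.74 in migratory and 8.19, 7.95 and 7.79 in resident cells (2.41 ± 0.28). For both genes resident WT DC1 stood above the other groups. Elovl6 fell less in Batf3-/- cells, from a lower resident level. Itga8 showed no decrease in Batf3-/- cells. All its Batf3-/- and migratory WT values lay below the filter level of 4.82, so Itga8 was tested only through the resident WT arrays. Its Batf3-/- change was called in 0 of 17 alternatives.

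For Tubb2b migratory Batf3-/- DC1 were the high group, at 9.12 to 10.08, against 6.26 to 7.22 in resident Batf3-/- DC1. In WT it had 7.05 and 7.83 in migratory and 6.95, 7.44 and 7.35 in resident DC1 (difference 2.90 ± 0.47, adjusted p = 0.0187, called in 16 of 21 alternatives). Irf8 fell in WT to 10.46 and 10.97 in migratory cells, against 12.39, 12.68 and 12.72 in resident cells, and the Batf3-/- minus WT difference was 1.38 ± 0.28 (adjusted p = 0.0401, called in 8 of 21 alternatives). Bmp2, a growth factor gene, had 3.72 to 4.53 in migratory and 4.01 to 4.22 in resident Batf3-/- DC1, whereas WT had 6.92 and 6.21 in migratory and 3.77 to 4.44 in resident DC1 (-2.56 ± 0.36). Its increase in migratory cells was thus measured in WT and not in Batf3-/- DC1.

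**Figure D5:**
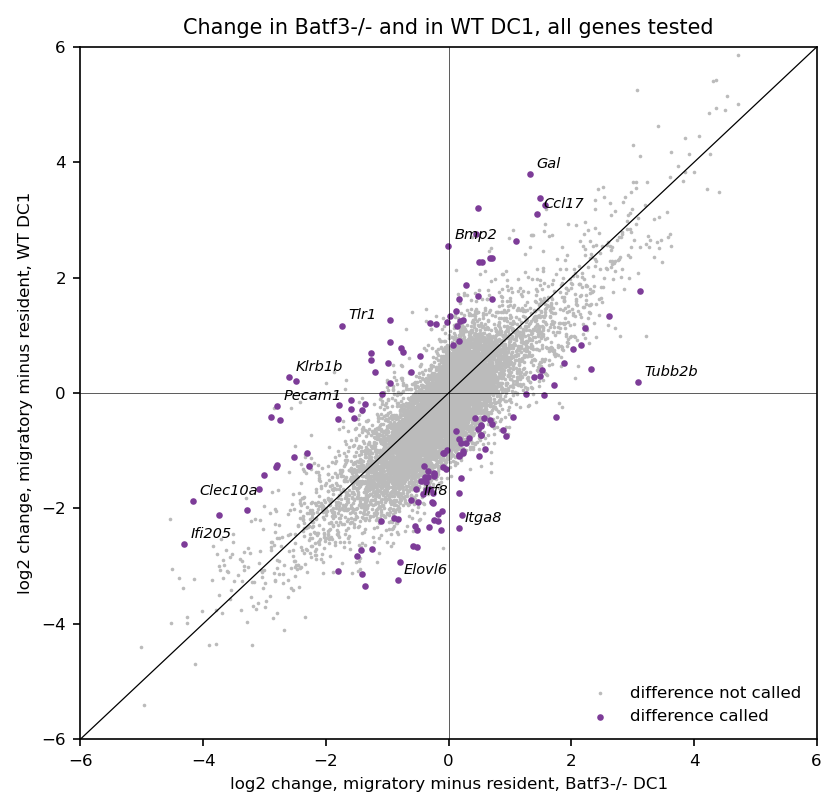
Log2 change in migratory minus resident DC1 for each gene tested, in Batf3-/- (x axis) and WT (y axis) cells, with the line of equal change. Purple points are the 148 genes whose change differed between genotypes at an adjusted p under 0.05, with 12 of them named, such as Tubb2b below the line and Bmp2 and Tlr1 above it.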

How the data were processed

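Type 1 dendritic cells of mouse lymph nodes were profiled on Affymetrix arrays. The authors deposited log2 intensities, made by RMA per the submitters' processing notes, with no version stated there. The distributions of the deposited arrays were not alike. Medians ran from 4.73 (resident WT replicate 2) to 4.92 (migratory WT replicate 1). The SD ran from 1.96 (migratory WT replicate 1) to 2.23 (resident Batf3-/- replicate 2). After a second quantile normalization, 2043 genes were called higher and 2250 lower in migratory Batf3-/- DC1, against 1677 and 2694. The split of calls thus depends on the normalization, and changes are read relative to the other genes. The table holds no background value per probe. Of 35556 probe sets, 21789 had 1 symbol in the platform annotation (21698 of them matched to RefSeq by gene identifier), 1621 with several were left out and 12146 were unnamed. For each of 19938 genes the brightest probe set on average was used, and 11932 genes with at least 2 arrays at 4.82 or more were tested. The spleen arrays were not analysed here.

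The tests were made with limma (version 3.58.1, R 4.3.3; eBayes with a mean-variance trend) on 11 arrays in 4 groups, which share the spread. Benjamini-Hochberg adjustment ran over every tested gene, and a call is an adjusted p under 0.05. Errors are standard errors of the fit. The main fit had no block. Deviations from group means of migratory and resident Batf3-/- arrays with the same title code had correlations of 0.416, 0.210 and 0.479. Arrays with differing codes had -0.451 to 0.218, the highest for migratory replicate 1 with resident replicate 2. The same-code value of replicate 2 (0.210) did not exceed that. The code was therefore taken as a possible pairing, and fits with it as a replicate block are alternatives. Others changed the filter, normalization, weights or arrays. The fit was tested on simulated data. Members and the 37 gene lists were chosen with earlier results of these data known. The rule for names took Batf3, Irf8, the sort genes, the 15 largest called changes each way, up to 6 called members of a list, and, for the difference from WT, the 10 largest each way and up to 2 list members. Predicted genes, small RNAs and segments of antigen receptors were not named among the largest changes. Genes named outside the rule were chosen after their values were seen.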

Additional observations from a re-analysis of the deposited data

Results flagged for a closer look

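The named genes below had a migratory minus resident change that differed between Batf3-/- and WT DC1 by the test of the difference itself (limma, adjusted p under 0.05). Values are the Batf3-/- change minus the WT change in log2. It was positive for Tubb2b (2.90), Itga8 (2.51), Elovl6 (2.41), Pi4k2a (2.33), Fzd1 (2.25), Arpin (2.17), Slc7a8 (2.15), Snx22 (2.13), Rtl8c (2.08), Mylip (2.05), Lipa (1.72), Tgfb3 (1.58), Itga6 (1.47), Irf8 (1.38), Tubb2a (1.28) and Asah1 (1.07). It was negative for Tlr1 (-2.91), Klrb1b (-2.87), Ms4a4c (-2.70), Pecam1 (-2.57), Bmp2 (-2.56), Gpr82 (-2.48), Gal (-2.47), Clec10a (-2.29), Ms4a6d (-2.28), Cd69 (-2.21), Ifi205 (-1.69), Ccl17 (-1.67), Cxcl9 (-1.53), Gpr183 (-1.52), Mgl2 (-1.42), Irgm1 (-1.30), Rab27a (-1.19), Tbx21 (-1.11) and Clec12a (-1.02). The median of this difference over all genes tested was 0.12. How often each call held under other settings ranged from 6 (Irgm1) to 21 (Klrb1b and Slc7a8) of at most 21 alternatives. In each genotype's own test Tlr1, Cd69 and Tbx21 were called in opposite directions, lower in migratory Batf3-/- and higher in migratory WT DC1, and Itga6 and Tgfb3 the other way round. The Batf3-/- change itself was called in 18 of 18 alternatives for Tlr1 and 17 of 17 for Itga6, but in 12 of 18 for Cd69, 13 of 17 for Tbx21 and 11 of 18 for Tgfb3. Tgfb3 stood at 0.60, and at 0.36 (adjusted p = 0.154) without migratory Batf3-/- replicate 2. Cd69 was not called without migratory replicate 1 or 3 or resident replicate 2 or 3, and Tbx21 not without migratory replicate 1 or 2 or resident replicate 3.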

How the results depend on the processing

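Of the 4371 genes called between migratory and resident Batf3-/- DC1, 2246 were called in the same direction in all of 18 alternatives. The count was 4664 with the replicate block, and 3445 to 4495 without an array or, an alternative chosen after seeing the data, without replicate 3 of both populations (1363 to 1821 higher, 2082 to 2754 lower). It was 5350 with array weights, 3800 from the 6 Batf3-/- arrays alone and 4963 from them with the block. With at least 2-fold also asked it was 1875 (685 higher, 1190 lower). The split of calls was 1927 higher and 2058 lower with each array's spread as a covariate and 2043 and 2250 after a second quantile normalization, against 1677 and 2694. With the block Asah1 was called as well (-0.38, adjusted p = 0.0492), and it changed no other call of a named gene in the fit of 11 arrays.

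The difference from WT (148 calls, 86 higher and 62 lower) was less firm. It was called for 543 genes with the replicate block (387 and 156), 1110 with array weights (878 and 232), 297 without the filter (188 lower), 82 with the stricter filter (23 lower) and 30 with the spread covariate (8 and 22). With each array centred on its median 39 were lower. Without single arrays it was 17 to 1716 (11 to 1353 higher, 6 to 363 lower), and without replicate 3 of both Batf3-/- populations 1497 (1184 and 313).

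Directions turned for genes that were not called in the main fit. Bmp2 (-0.00) stood at -0.20 to 0.20 without single arrays, with 0.20 without migratory replicate 2. It stood at 0.02 and 0.03 without resident replicates 2 and 3 and at 0.03 without both replicates 3. Mylip (-0.17) stood at 0.45 with the spread covariate and between -0.38 and 0.00 without single arrays (0.00 without resident replicate 1). Pi4k2a (0.22) stood between -0.09 (without resident replicate 3) and 0.52 without single arrays. With the spread covariate Pi4k2a was called higher by limma (0.98, adjusted p = 0.00208). S100a9 (0.26) stood at -0.21 with the spread covariate. Slc4a1 (0.02) stood at -0.08 with array weights, -0.01 after median centring and after quantile normalization, -0.27 with the spread covariate, between -0.11 (without migratory replicate 3) and 0.11 without single arrays, and -0.11 without both replicates 3. The causes were not tested. With 3 arrays a group, small changes of dim genes could not be resolved.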
